A study of Mus musculus with 9 samples.

Results

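The triggering receptors expressed on myeloid cells (TREM) and the adaptors that carry their signal were followed in the blood of mice after injury. They were 6 genes of 18194 measured and were chosen by name: the receptors Trem1, Trem2, Trem3 and Treml2 and the adaptors Tyrobp and Hcst. Of the probe sets annotated with exactly 1 gene symbol, the one with the highest mean over the 9 arrays stood for its gene. PT+HS mice had a polytrauma of head injury, closed fracture of the femur with damage to the soft tissue, and blunt trauma to both sides of the chest. After 1 h blood was also withdrawn until the mean arterial pressure was 30 mmHg, where it was held for 60 min (the hemorrhagic shock, HS), and electrolyte solution of 4 times the withdrawn volume was then infused over 30 min. PT mice had the polytrauma alone, and blood of both injured groups was drawn from the heart 4 h after the trauma. Ctrl mice were not manipulated and were bled as soon as they were anesthetized. All were C57BL/6 mice of 8 to 9 weeks, with 3 animals per group and 1 array per animal. PT+HS mice also needed norepinephrine to hold their blood pressure. Since the injured mice were also kept under anesthesia and received buprenorphine, the effects of injury and of treatment cannot be told apart in a comparison with Ctrl. Between PT+HS and PT, the effects of bleeding, infused fluid and norepinephrine cannot be told apart.

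TREM receptors are immunoglobulin-like proteins on the surface of neutrophils, monocytes and macrophages. Trem1, Trem2 and Trem3 have short tails without a signaling motif and pair in the membrane with Tyrobp, also called DAP12. Its tyrosine motif (ITAM) recruits the kinase Syk. Hcst, also called DAP10, lacks an ITAM and recruits phosphatidylinositol kinase instead, best known below the receptor Klrk1 of NK cells and T cells. Trem1 amplifies inflammatory responses that toll-like receptors have started, whereas Trem2 binds lipids and lipoproteins on tissue macrophages and microglia. Trem3 is a close relative of Trem1 in mice, and its human counterpart is a pseudogene. Treml2 is found on B cells, neutrophils and macrophages of mice and has a longer tail of its own.

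The deposited values were log2 expression values, and the 9 arrays had medians of 3.63 to 3.76. PT replicate 2 stood apart, with correlations of 0.912 to 0.949 to the other arrays, which correlated with each other at 0.961 or more. Each gene was tested in a limma fit to all genes and was read at 2 levels, either by its adjusted p (under 0.05) or by the thresholds of the study, which ask for an unadjusted p below 0.05 together with a 1.5-fold change. Of the neutrophil markers, 10 of 12 listed were measured, and 7 of them passed these thresholds as higher in PT+HS than in Ctrl (3.28% of all genes passed there in either direction) and 6 in PT (3.67% of all genes). Without Ctrl replicate 2, 3 of 10 passed in PT, beside 2.91% of all genes. The mean of the 10 genes was 8.59 to 9.93 in PT+HS, 7.99 to 9.51 in PT and 6.66 to 8.39 in Ctrl, so that PT and Ctrl overlapped. B cell markers (5 of 6) had means of 6.25 to 6.64 in PT+HS, 5.85 to 7.26 in PT and 7.34 to 8.13 in Ctrl. Markers of tissue macrophages (8 of 8) were low in all groups, at 3.82 to 4.38 in PT+HS, 3.68 to 4.17 in PT and 3.69 to 4.00 in Ctrl, where the median over the means of all genes was 4.29. In such bulk blood, fewer cells of a type and less RNA per cell cannot be told apart. The part of shifted cell types in the differences below was not tested.

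Trem1 was higher in both injured groups, while Trem3 and Tyrobp were highest in PT+HS. Treml2 was lower in PT, and Trem2 and Hcst had group means that lay close together. Against Ctrl, 2 of the 6 genes passed the thresholds in PT+HS (Trem1 and Tyrobp, both higher), as 3.28% of all genes did. In PT again 2 of 6 passed, Trem1 higher and Treml2 lower, against 3.67% of all genes. Between PT+HS and PT 0 of 6 passed, where 1.12% of all genes did, and 0 of 6 had an unadjusted p under 0.05 in limma (2.87% of all genes). By the adjusted p of limma 0 of the 6 passed in any comparison, and of all genes 1 did between PT+HS and Ctrl and 0 did in each of the other pairwise comparisons. The groups did not overlap in 3 of 6 genes between PT+HS and Ctrl (13.2% of all genes), in 2 of 6 between PT and Ctrl (9.44%) and in 0 of 6 between PT+HS and PT (7.17%). The median difference over the 6 genes was 0.38 between PT+HS and Ctrl, 0.23 between PT and Ctrl and 0.20 between PT+HS and PT, with medians of -0.01, -0.0003 and -0.003 over all genes.

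**Figure D1:**
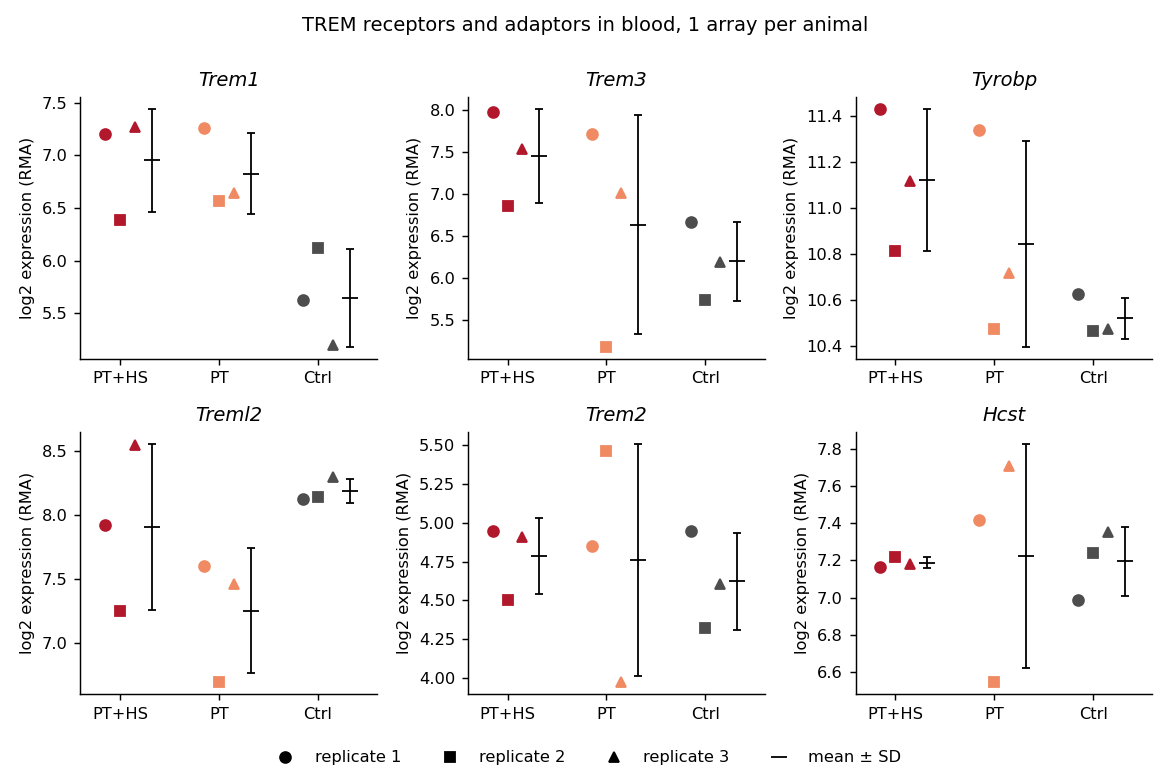
Log2 expression of the 6 genes in each animal, with group means and SD (3 animals per group, the shape marks the replicate number). All 6 injured animals lay above the Ctrl animals for Trem1, and PT replicate 2 was the lowest array for Trem3, Treml2 and Hcst.

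Trem1, the receptor of neutrophils and monocytes that enhances inflammation, had 7.20, 6.38 and 7.27 in the PT+HS animals, 7.26, 6.56 and 6.64 in the PT animals and 5.62, 6.12 and 5.19 in the Ctrl animals. The lowest injured animal (6.38) was thus above the highest Ctrl animal (6.12). Means were 6.95 ± 0.49 in PT+HS, 6.82 ± 0.38 in PT and 5.64 ± 0.46 in Ctrl (SD, n = 3 each). PT+HS exceeded Ctrl by a log2 difference of 1.31 (standard error 0.32), which is 2.47-fold, and PT exceeded Ctrl by 1.18 (standard error 0.32), which is 2.27-fold. The adjusted p from limma was 0.450 and 0.551, with an unadjusted p of 0.00220 and 0.00418. The mean of the injured groups exceeded that of Ctrl by 1.24 (standard error 0.28, higher in 6 of 6 injured animals). A two-sided exact permutation test over the 9 arrays gave p = 0.0119, the smallest it can give, and limma an adjusted p of 0.249. In this comparison Trem1 was the 1 gene of 6 past the thresholds, as were 3.25% of all genes, and 1.52% of all genes were higher in the injured animals without overlap. Between PT+HS and PT the difference was 0.13, with a 95% interval of -0.58 to 0.84, so that this probe set did not distinguish the injured groups. Trem1 passed the thresholds against Ctrl in both injured groups whichever array was left out, at 1.08 to 1.59 in PT+HS and 0.95 to 1.42 in PT.

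A second probe set of Trem1 (1460282_at) gave lower values than the one used (1447284_at), with means of 4.36 ± 0.45 in PT+HS, 3.71 ± 0.52 in PT and 3.25 ± 0.22 in Ctrl (SD, n = 3 each). Its PT+HS animals (4.67, 3.85 and 4.56) lay above the Ctrl animals (3.03, 3.46 and 3.24), by 1.12 (standard error 0.30, unadjusted p 0.00387 and adjusted p 0.608 from limma), past the thresholds. Among all probe sets with 1 symbol, 2.82% passed there and 6.04% were higher without overlap. The PT animals (4.31, 3.37 and 3.45) overlapped with Ctrl in this probe set, with a difference of 0.47 (standard error 0.30, unadjusted p 0.146 from limma). The injured animals as a whole thus overlapped with Ctrl here, unlike in the probe set used. Their mean exceeded that of Ctrl by 0.79 (standard error 0.26, unadjusted p 0.0119 from limma), past the thresholds, as for 2.71% of probe sets. The exact permutation test gave p = 0.0595. Both probe sets therefore had higher values in PT+HS than in Ctrl, whereas the difference between PT and Ctrl rested on the brighter one. The second probe set differed between PT+HS and PT by 0.65 (standard error 0.30, unadjusted p 0.0531 from limma), short of the thresholds, with overlapping animals. Without PT replicate 1 this was 0.95 (unadjusted p 0.00623 from limma) and without PT+HS replicate 2 it was 0.91 (unadjusted p 0.0136 from limma), both past the thresholds. Of all genes, 2.78% and 1.84% passed in these 2 settings.

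The sequence before Trem1 is shown with that of Hcst, as the gene with the largest difference from Ctrl and one whose group means lay close together. Both are RefSeq promoter windows of 250 bases before and 50 after the gene start (GRCm38.p6), and 3 of the 6 genes matched that table. Trem1 lies at chr17:48232489-48232788 on the plus strand and Hcst at chr7:30419805-30420104 on the minus strand. Capitals mark the motif GAGGAA, or TTCCTC on the opposite strand, a core of sites for PU.1, the transcription factor of myeloid cells.
Trem1: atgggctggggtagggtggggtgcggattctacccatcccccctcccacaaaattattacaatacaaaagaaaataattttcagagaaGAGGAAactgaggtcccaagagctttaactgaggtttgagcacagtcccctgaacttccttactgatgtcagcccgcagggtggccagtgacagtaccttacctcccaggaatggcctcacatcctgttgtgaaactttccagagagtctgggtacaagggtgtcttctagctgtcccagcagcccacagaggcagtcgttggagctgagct
Hcst: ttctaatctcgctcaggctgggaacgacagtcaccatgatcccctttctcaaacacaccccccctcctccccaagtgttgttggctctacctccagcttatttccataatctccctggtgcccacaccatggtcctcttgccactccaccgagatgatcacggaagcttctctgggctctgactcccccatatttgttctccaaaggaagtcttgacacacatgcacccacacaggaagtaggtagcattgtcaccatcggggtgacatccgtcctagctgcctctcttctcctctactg
The Trem1 window held the motif at bases 89 to 94, and the Hcst window did not hold these 6 letters. The window of Trem2, whose group means also lay close together, held the motif on the minus strand. Of 32851 windows, 28.3% hold GAGGAA on either strand. The letters TTGCNNAA, a C/EBP core, and TGANTCA, an AP-1 site, were in neither window and are in 10.8% and 7.81% of all windows on either strand.

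Trem3, the other Tyrobp-coupled activating receptor of mouse myeloid cells, had 7.97, 6.85 and 7.53 in PT+HS, 7.71, 5.18 and 7.01 in PT and 6.66, 5.73 and 6.19 in Ctrl. All PT+HS animals lay above the Ctrl animals, and the PT animals spread across the whole range, with replicate 2 lowest of all arrays. Means were 7.45 ± 0.56 in PT+HS, 6.63 ± 1.31 in PT and 6.19 ± 0.47 in Ctrl (SD, n = 3 each). The difference was 1.26 between PT+HS and Ctrl (standard error 0.57, unadjusted p 0.0522 and adjusted p 1.0 from limma), 0.44 between PT and Ctrl and 0.82 between PT+HS and PT (standard error 0.57 each). None passed the thresholds in this fit, though PT+HS did against Ctrl with the unmoderated test that the methods name, and in limma on the arrays of these groups alone (unadjusted p 0.00271). Without PT replicate 2 the difference of PT from Ctrl was 1.16 (unadjusted p 0.00972 from limma), that of PT+HS from Ctrl kept its 1.26 at an unadjusted p of 0.00322, and that of PT+HS from PT was 0.09. Of all genes, 6.14% and 4.57% passed the thresholds in the first 2 of these comparisons. Without PT replicate 1, on the other hand, PT differed from Ctrl by -0.10 and PT+HS from PT by 1.36 (unadjusted p 0.0328 from limma, where 2.78% of all genes passed the thresholds). The level of Trem3 in PT, and with it the comparison of PT+HS with PT, was therefore set by single animals.

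Treml2, a receptor of B cells, neutrophils and macrophages, had 7.92, 7.25 and 8.54 in PT+HS, 7.60, 6.69 and 7.46 in PT and 8.13, 8.14 and 8.29 in Ctrl. Every PT animal lay below every Ctrl animal, and the PT+HS animals reached across both. Means were 7.90 ± 0.65 in PT+HS, 7.25 ± 0.49 in PT and 8.19 ± 0.09 in Ctrl (SD, n = 3 each). PT was lower than Ctrl by a log2 difference of -0.93 (standard error 0.33, unadjusted p 0.0185 and adjusted p 0.741 from limma), past the thresholds. The call was lost without PT replicate 2, where the difference was -0.65 (unadjusted p 0.0610 from limma), and without Ctrl replicate 3, where it was -0.88 (unadjusted p 0.0519 from limma). PT+HS differed from PT by 0.65 (95% interval -0.09 to 1.39) and from Ctrl by -0.28 (95% interval -1.02 to 0.46). The difference from PT was 0.33 without PT+HS replicate 3 and 0.37 without PT replicate 2, and 0.98 (unadjusted p 0.0104 from limma, past the thresholds) without PT+HS replicate 2, where 1.84% of all genes passed.

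The same pattern was tighter in a second probe set of Treml2 (1440938_at), which had 7.20, 7.33 and 7.47 in PT+HS, 6.60, 6.85 and 6.62 in PT and 7.33, 7.44 and 7.46 in Ctrl. The PT animals lay below both other groups, which overlapped with each other. PT was lower than Ctrl by -0.72 (standard error 0.14, unadjusted p 0.000616 and adjusted p 0.458 from limma). PT+HS lay above PT by 0.64 (standard error 0.14, unadjusted p 0.00134 and adjusted p 1.0 from limma). Both differences passed the thresholds, which 3.08% and 1.01% of all probe sets with 1 symbol did in these comparisons. Without overlap were 9.34% and 7.47% of probe sets. Leaving out each array in turn gave 0.57 to 0.72 between PT+HS and PT, and without PT+HS replicate 3 the 0.57 was under 1.5-fold. PT+HS differed from Ctrl by -0.08 (standard error 0.14). Of the remaining probe sets, both near the lower end of the scale, 1444718_at gave -0.47 between PT and Ctrl (unadjusted p 0.0150 from limma) with no overlap, and 1419837_at gave -0.19 with values of 2.94 to 3.56 in all animals. The probe set used for the gene was 1440298_at, and this second probe set was singled out after its values were seen.

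**Figure D2:**
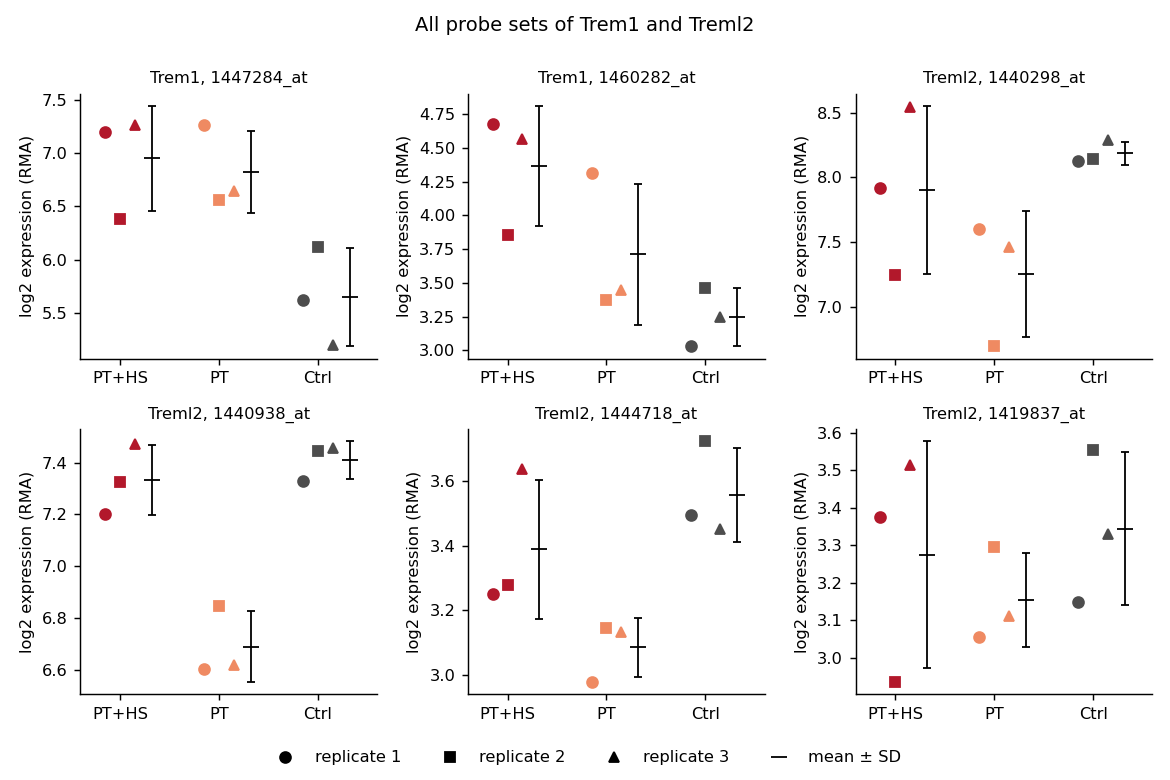
Log2 expression in the probe sets of Trem1 (2) and Treml2 (4) with 1 gene symbol, for each animal, with group means and SD (3 animals per group). In 1440938_at of Treml2 the PT animals (6.60 to 6.85) lay below the PT+HS animals (7.20 to 7.47) and the Ctrl animals (7.33 to 7.46).

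The neighbours Treml4 and Treml1 of the same gene cluster were measured as well, and Treml6 was not measured here. Treml4, a receptor of patrolling monocytes and splenic macrophages, had 6.87, 6.28 and 5.95 in PT+HS, 6.16, 5.70 and 5.08 in PT and 6.93, 6.79 and 6.75 in Ctrl. It was lower in PT than in Ctrl by -1.17 (standard error 0.30, unadjusted p 0.00299 from limma), whichever array was left out. PT+HS lay above PT by 0.72 in Treml4 (standard error 0.30, unadjusted p 0.0377 from limma), with overlapping animals. That call was kept in 3 of 9 fits with 1 array left out, being lost without any 1 of the Ctrl arrays, PT replicate 3 or PT+HS replicate 1 or 2. Treml1, a receptor stored in platelet granules, had means of 8.30 ± 0.14 in PT+HS, 7.93 ± 0.35 in PT and 8.42 ± 0.19 in Ctrl (SD, n = 3 each) and passed in no comparison. Platelet markers (7 of 7) had means of 10.2 to 10.4 in PT+HS, 9.88 to 10.1 in PT and 10.3 to 10.5 in Ctrl. All 7 had a lower mean in PT than in Ctrl, where 49.9% of all genes had a higher one, and 1 passed the thresholds (Gp6, in 6 of 9 fits with 1 array left out) beside 3.67% of all genes. Of 9 monocyte markers measured (11 listed) 9 had a higher mean in PT+HS than in PT, as 49.3% of all genes had, and 2 passed beside 1.12% of all genes. These were Nr4a1, kept in 5 of 9 fits with 1 array left out, and Klf4, kept in 3 of 9. Between PT and Ctrl the list split, beside 3.67% of all genes past the thresholds. Higher were 3 (Ccr2 by 1.36, Cd14 by 1.75 and Fcgr1 by 1.71) and lower 3 (Cx3cr1 by -1.29, Nr4a1 by -1.32 and Klf4 by -0.94). Fcgr1 was kept in 5 of 9 fits, the others in 9 of 9. Between PT+HS and Ctrl the same 3 passed as higher and Cx3cr1 as lower, beside 3.28% of all genes, with Fcgr1 kept in 5 of 9 fits and Cx3cr1 in 4. The part of these cells in the levels of Treml2, Treml4 and Treml1 was not tested.

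Trem2, the lipid-sensing receptor of tissue macrophages, was measured at 4.95, 4.50 and 4.91 in PT+HS, 4.85, 5.46 and 3.98 in PT and 4.95, 4.32 and 4.60 in Ctrl. The groups overlapped entirely, and the PT animals held both the highest and the lowest value. Differences were 0.16 between PT+HS and Ctrl, 0.14 between PT and Ctrl and 0.02 between PT+HS and PT (standard error 0.34 each), with a 95% interval of -0.74 to 0.79 for the last. A second probe set (1421226_at) lay at 3.81 to 3.97 in PT+HS, 3.81 to 4.23 in PT and 3.77 to 4.16 in Ctrl, below the median of all genes.

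Tyrobp, the ITAM adaptor of Trem1, Trem2 and Trem3, had 11.43, 10.81 and 11.12 in PT+HS, 11.34, 10.47 and 10.72 in PT and 10.62, 10.47 and 10.48 in Ctrl. The PT+HS animals lay above the Ctrl animals, which were close together, and the PT animals ranged from the Ctrl level to that of PT+HS. Means were 11.12 ± 0.31 in PT+HS, 10.84 ± 0.45 in PT and 10.52 ± 0.09 in Ctrl (SD, n = 3 each). The difference of PT+HS from Ctrl was 0.60 (standard error 0.24, unadjusted p 0.0348 and adjusted p 0.949 from limma), which at 1.51-fold was just past the thresholds. PT differed from Ctrl by 0.32 and PT+HS from PT by 0.28 (95% interval -0.27 to 0.82). Without PT replicate 1 these were 0.07 and 0.52 and without PT replicate 2 they were 0.51 and 0.09, while PT+HS differed from PT by 0.12 without PT+HS replicate 1 and by 0.43 without PT+HS replicate 2. The call of PT+HS against Ctrl was kept in 4 of 9 fits with 1 array left out. It was lost without any 1 of the Ctrl arrays, without PT+HS replicate 1 (0.44) or without PT+HS replicate 3 (0.60, unadjusted p 0.0708 from limma). Over the injured animals together an exact permutation test against Ctrl gave p = 0.0714 (two-sided).

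Hcst, the adaptor that binds phosphatidylinositol kinase, had 7.16, 7.22 and 7.18 in PT+HS, 7.42, 6.55 and 7.71 in PT and 6.99, 7.24 and 7.36 in Ctrl. The PT+HS animals were almost identical, whereas the PT animals lay on both sides of them, with a total range of more than 1 log2 unit. Means were 7.19 ± 0.03 in PT+HS, 7.22 ± 0.60 in PT and 7.19 ± 0.19 in Ctrl (SD, n = 3 each). Differences were -0.01 between PT+HS and Ctrl (95% interval -0.61 to 0.60), 0.03 between PT and Ctrl (95% interval -0.58 to 0.63) and -0.03 between PT+HS and PT (95% interval -0.64 to 0.57).

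**Figure D3:**
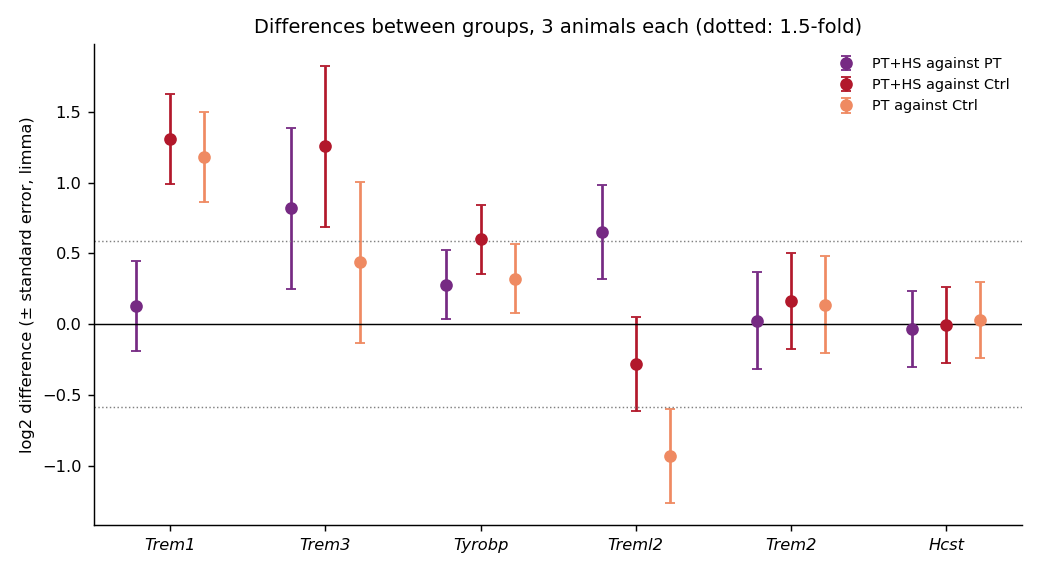
Log2 differences of the 6 genes between groups (points) with standard errors from limma (bars), for PT+HS against PT, PT+HS against Ctrl and PT against Ctrl, with dotted lines at 1.5-fold. Past the lines in PT+HS against Ctrl lay Trem1 (1.31), Trem3 (1.26) and Tyrobp (0.60), and in PT against Ctrl Trem1 (1.18) and Treml2 (-0.93). In PT+HS against PT, Trem3 (0.82) and Treml2 (0.65) lay past them.

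Across the 9 animals Trem3 and Tyrobp went together, and Hcst followed other genes. Over 15 pairs of the 6 genes, Trem3 and Tyrobp had the highest correlation (Pearson's r 0.912, exact permutation p = 0.000675, adjusted 0.0101). Spearman's rho was 0.967 (exact permutation p = 0.000165, adjusted 0.00248). Without the 2 arrays farthest from the median of Tyrobp, r was 0.872, without PT replicate 2 it was 0.952, and within groups, after subtracting the group means, it was 0.877. Trem1 and Tyrobp had an r of 0.799 (exact permutation p = 0.0117, adjusted 0.0585) and a rho of 0.717 (exact permutation p = 0.0369, adjusted 0.138). Trem2 and Hcst ran in opposite directions (r -0.856, exact permutation p = 0.00651, adjusted 0.0488). Their rho was -0.833 (exact permutation p = 0.00827, adjusted 0.0620), and without the 2 arrays farthest from the median of Hcst r was -0.34, so that the relation rested on these.

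Over 48 pairs of a gene with a list of cell markers, Trem3 and Tyrobp ran with the neutrophil markers. For Trem3, r was 0.828 (exact permutation p = 0.00654, adjusted 0.0628) and rho 0.933 (exact permutation p = 0.000750, adjusted 0.0180), and r was 0.905 without the 2 arrays farthest from the median of the markers and 0.866 within groups. For Tyrobp, r was 0.837 (exact permutation p = 0.00645, adjusted 0.0628) and rho 0.933 (exact permutation p = 0.000750, adjusted 0.0180), and r was 0.861 without the 2 farthest arrays and 0.725 within groups. Trem1 had an r of 0.798 to these markers (exact permutation p = 0.0106, adjusted 0.0845), a rho of 0.767 (exact permutation p = 0.0214, adjusted 0.147), an r of 0.737 without the 2 farthest arrays and an r of 0.394 within groups. The relations were not particular to neutrophil markers. Within groups the platelet markers had an r of 0.852 to Trem1, 0.732 to Tyrobp and 0.688 to Trem3. Over all 9 arrays these were -0.27, 0.07 and 0.21. Tyrobp also had an r of 0.683 to the monocyte markers (exact permutation p = 0.0458, adjusted 0.211) and of 0.604 within groups. Hcst ran with the T cell markers, of which 6 of 7 were measured (r 0.917, exact permutation p = 0.00192, adjusted 0.0628). Its rho was 0.867 (exact permutation p = 0.00451, adjusted 0.0433), and r was 0.707 without the 2 farthest arrays, 0.898 without PT replicate 2 and 0.926 within groups. Within groups Hcst ran as closely with the B cell markers (r 0.933) and also with the NK cell markers (r 0.827). Over all 9 arrays these had an r of 0.490 and 0.333 to Hcst. Treml2 had its highest r with the platelet markers (0.829, exact permutation p = 0.00579, adjusted 0.0628), with a rho of 0.683 (exact permutation p = 0.0503, adjusted 0.217) and an r of 0.618 without the 2 farthest arrays. Hcst was lowest in PT replicate 2 and highest in PT replicate 3, the arrays in which the T cell markers also had their lowest mean (6.44) and their highest (8.35). The B cell and NK cell markers had their lowest means (5.85 and 5.29) in PT replicate 2 as well.

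**Figure D4:**
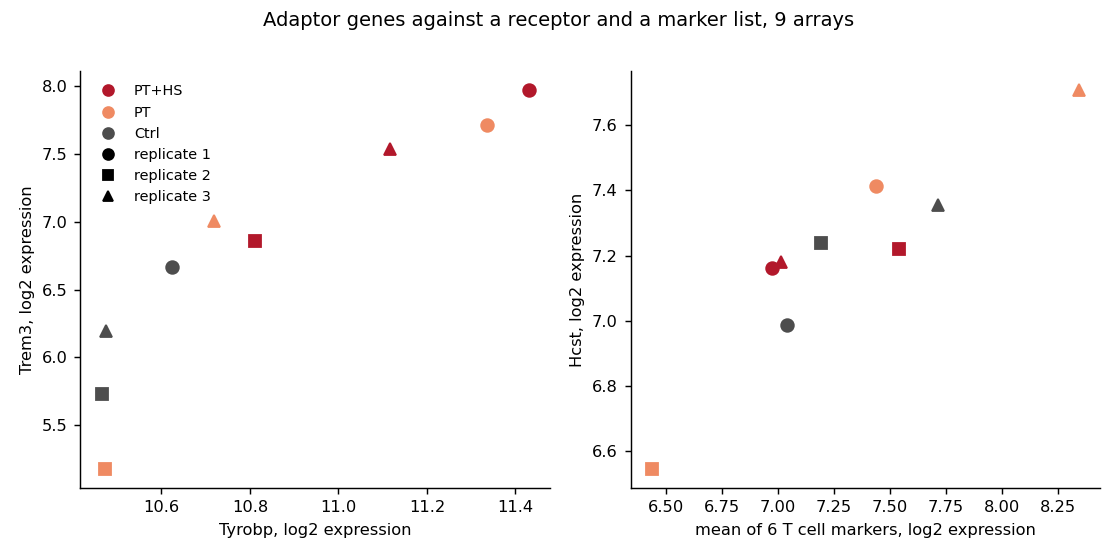
Left, Trem3 against Tyrobp, right, Hcst against the mean of 6 T cell markers, both as log2 expression in each of the 9 animals (colour marks the group, shape the replicate number). Trem3 and Tyrobp were both highest in PT+HS replicate 1 (7.97 and 11.43), and PT replicates 2 and 3 stood at the ends of the T cell axis (6.44 and 8.35).

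For each of the 6 genes the 3 genes most like it over the 9 arrays were named by Pearson's r of the log2 values, as a description. Trem1 was most like Il13ra1, a receptor chain for interleukin (0.960), Tnfsf9, a costimulatory ligand (0.955), and Hdc, the enzyme of histamine synthesis (0.953). Trem3 was most like Txn1, the redox protein thioredoxin (0.988), Cebpd, a transcription factor of acute inflammation (0.980), and the chemokine Ccl6 (0.971). Tyrobp was most like Msrb1, a methionine sulfoxide reductase (0.976), Gyg, which primes glycogen synthesis (0.967), and Sirpb1a, a receptor that itself pairs with Tyrobp (0.961). Treml2 was most like Cnn2, an actin-binding calponin (0.975), the transcription factor Klf7 (0.961) and the integrin chain Itgb5 (0.956). Hcst was most like AW549877 (0.991), Ahcyl1 (0.985) and Pa2g4 (0.984), and Trem2 like the kinase Stk40 (0.967), Prkar1b, a subunit of protein kinase A (0.956), and 1700013D24Rik (0.950). The arrays share their groups and PT replicate 2. Without PT replicate 2 these values were 0.92 or more. Within groups, those of Trem1 were 0.878 for Il13ra1, 0.910 for Tnfsf9 and 0.863 for Hdc, and those of the other genes were 0.92 or more.

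Other receptors that signal through Tyrobp or Hcst moved in both directions, and 9 of 11 listed were measured. Against Ctrl, 2 passed the thresholds in PT+HS, both higher: Sirpb1a by 1.27 (standard error 0.32) and Clec5a, a receptor of monocytes and neutrophils, by 1.09 (standard error 0.48). Of all genes, 3.28% passed there. Sirpb1a had 9.50, 8.79 and 9.20 in PT+HS, 9.40, 8.17 and 8.53 in PT and 8.25, 7.66 and 7.77 in Ctrl. Its PT+HS animals lay above all Ctrl animals, as did those of 6.55% of all genes, and it passed there whichever array was left out. Clec5a was dim in Ctrl (mean 3.40) and passed in 4 of 9 fits with 1 array left out, failing without any 1 of the Ctrl arrays or without PT+HS replicate 1 or 3. In PT against Ctrl, where 3.67% of all genes passed, Sirpb1a was higher by 0.81 (standard error 0.32) and Klra8, an activating receptor of NK cells, lower by -0.72 (standard error 0.29). Both passed in 6 of 9 fits, Sirpb1a failing without Ctrl replicate 2 or 3 or PT replicate 1, and Klra8 without Ctrl replicate 1 or 3 or PT replicate 2. NK cell markers (6 of 7 measured) were at mean levels of 5.86 to 6.19 in PT+HS, 5.29 to 5.78 in PT and 6.31 to 6.59 in Ctrl. In PT against Ctrl their median difference was -0.78 and 4 of the 6 passed as lower, as did 2.26% of all genes. Their part in the level of Klra8 was not tested. Between PT+HS and PT, 2 of 9 passed beside 1.12% of all genes, both higher: Cd300lb, a myeloid activating receptor, by 1.01 (standard error 0.36) and Pilrb1 by 1.07 (standard error 0.41). With 1 array left out Cd300lb passed in 6 of 9 fits, failing without PT replicate 2 or PT+HS replicate 1 or 3, and Pilrb1 passed in 5 of 9, failing without any 1 of these or PT replicate 3. Sirpb1a, Pilrb1 and Klra8 have near-identical relatives, so that their probe sets may measure more than 1 gene. The median difference of the 9 genes was 0.23 in PT+HS against Ctrl, -0.22 in PT against Ctrl and 0.22 in PT+HS against PT.

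Among the other ITAM adaptors (7 of 7 measured), those of the B cell receptor were lower in both injured groups. Cd79a differed from Ctrl by -1.17 in PT+HS and -1.20 in PT, and Cd79b by -2.10 in PT+HS and -1.80 in PT, all past the thresholds whichever array was left out. Of all genes, 3.28% passed against Ctrl in PT+HS and 3.67% in PT. Both genes also stand among the B cell markers, whose lower levels were given above. Fcer1g, the ITAM adaptor of myeloid Fc receptors, did not pass, with 10.55 in PT+HS, 10.24 in PT and 10.26 in Ctrl. The adaptors of the T cell receptor did not pass in any comparison over all arrays. Without PT replicate 2, a setting chosen after the data were seen, 3 of them passed as higher in PT than in Ctrl (Cd247 by 0.94, Cd3d by 1.01 and Cd3g by 1.30), where 6.14% of all genes passed. The same 3 then passed as lower in PT+HS than in PT, where 4.7% of all genes passed.

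Of the enzymes and scaffolds that act below the adaptors, 15 of 18 were measured. In PT against Ctrl, 2 passed beside 3.67% of all genes, both lower: Plcg2, the phospholipase of ITAM signaling, by -0.90 (standard error 0.17) and the scaffold Lat2 by -1.23 (standard error 0.29). Plcg2 had 6.75, 7.03 and 7.02 in PT+HS, 6.59, 6.70 and 6.49 in PT and 7.26, 7.58 and 7.65 in Ctrl. All injured animals lay below the Ctrl animals, as they did for 1.62% of all genes. In PT+HS against Ctrl, where 3.28% of all genes passed, the kinase Fgr was higher by 0.67 (standard error 0.22) and Lat2 lower by -0.76 (standard error 0.29). Fgr did not pass without PT+HS replicate 3, and Lat2 not without that array or Ctrl replicate 2 or 3. The kinase Syk itself did not pass, with means of 7.77 in PT+HS, 7.74 in PT and 8.09 in Ctrl. None of the 15 passed between PT+HS and PT, where 1.12% of all genes did, and their median difference there was 0.11.

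Of 8 inhibitors of ITAM signaling, 1 passed, the phosphatase Ptpn6, lower in PT than in Ctrl by -0.87 (standard error 0.25), beside 3.67% of all genes. It had 8.30, 7.93 and 8.05 in PT+HS, 7.93, 7.26 and 7.63 in PT and 8.09, 8.44 and 8.91 in Ctrl. Without PT replicate 2, 4 of the 8 passed in this comparison, Cblb and Tnfaip3 higher and Ptpn6 and Dok1 lower, beside 6.14% of all genes. Of 6 measured ligands reported for TREM receptors (7 listed) none passed, and Pglyrp1, a ligand of Trem1 kept in neutrophil granules, had means of 5.35 in PT+HS, 4.66 in PT and 4.94 in Ctrl. Of 7 cytokines that follow Trem1 triggering, Ccl3 passed between PT+HS and PT, beside 1.12% of all genes. It was higher there by 0.59 (standard error 0.19), and it failed without PT replicate 2 or PT+HS replicate 2 or 3. It was dim, with means of 3.95 in PT+HS, 3.36 in PT and 3.89 in Ctrl. Il1b, the interleukin of inflammasomes, had means of 9.44 in PT+HS, 8.72 in PT and 8.74 in Ctrl and did not pass over all arrays. Its PT animals had 9.42, 7.40 and 9.33, with replicate 2 the lowest. Without PT replicate 2, Il1b passed as higher in PT+HS than in Ctrl (0.70, unadjusted p 0.0442 from limma), beside 4.57% of all genes. It then also passed for both injured groups against Ctrl (0.66, unadjusted p 0.0353 from limma), beside 4.12%. Of 6 measured proteases that shed the receptors (7 listed) none passed, with Adam10 at 8.52 in PT+HS, 8.91 in PT and 8.85 in Ctrl.

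**Figure D5:**
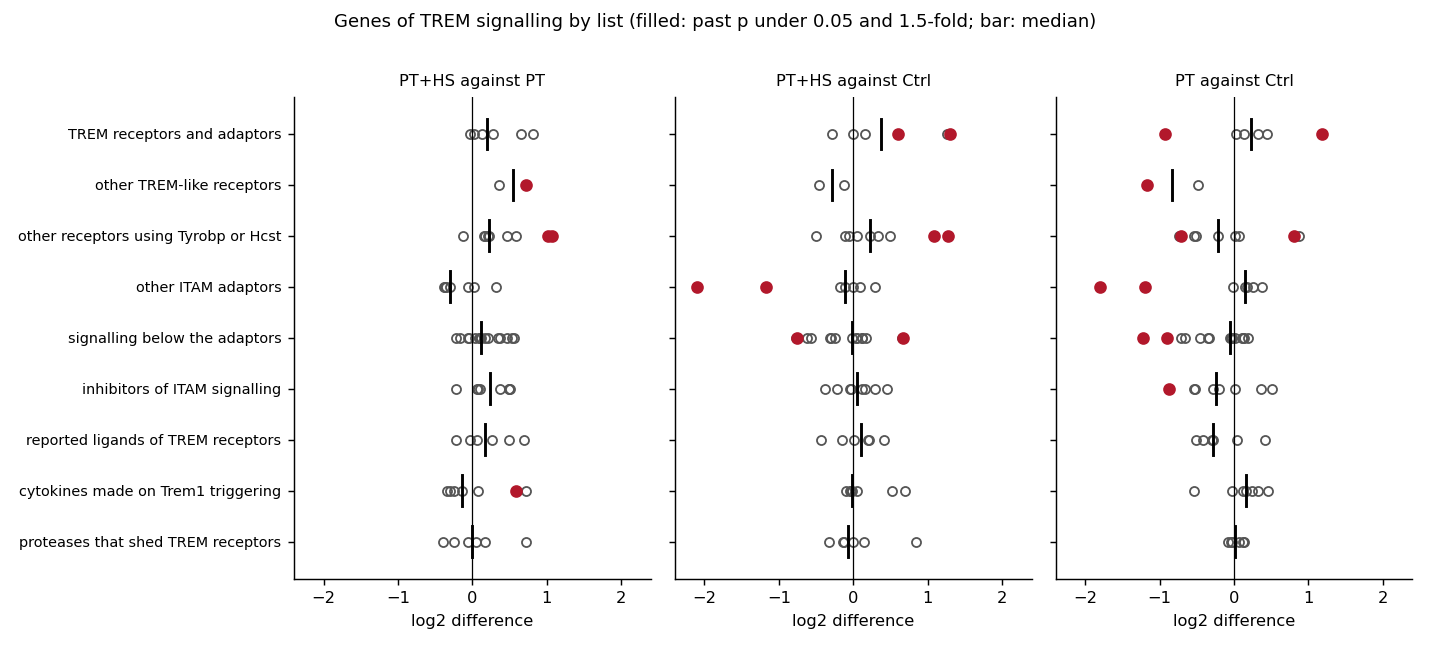
Log2 differences of single genes (points) in the lists of TREM signaling for PT+HS against PT, PT+HS against Ctrl and PT against Ctrl, with the median of each list (bar). Filled points passed an unadjusted p under 0.05 and 1.5-fold. The lowest points are Cd79b at -2.10 in PT+HS against Ctrl and -1.80 in PT against Ctrl.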

How the data were processed

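Blood RNA of 3 PT+HS, 3 PT and 3 Ctrl mice was measured on 1 array per animal. The deposited log2 values are those of the authors, who used Expression Console and BRB-ArrayTools to correct background, normalize arrays by quantiles and summarise probe sets (robust multiarray average). Software versions: not given in the sources used here. While the methods name the Mouse Gene ST array, the probe set names are those of a different Affymetrix mouse array, whose annotation was used. Values ran from 1.74 to 14.7.

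Probe sets with 1 symbol were used (34958 of 45101, with 932 of several symbols and 9211 of none left out), and the symbols of 34754 were matched to RefSeq through the Entrez ID. Each of 18194 genes was given its probe set with the highest mean, with no filter on low values. limma 3.58.1 in R 4.3.3 fitted 1 mean per group to all 9 arrays. Groups were compared pairwise, and the mean of both injured groups with Ctrl, by its moderated two-sided test with p-values adjusted after Benjamini and Hochberg over all genes. Intervals are 95% intervals of that fit. With 3 animals against 3 an exact permutation test cannot go below 0.10, so it was used for 6 against 3 (84 arrangements) and for correlations. The sources used here give no batch, and the number of arrays limits the precision. The fit was tested on simulated data.

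The 6 genes and all lists were chosen with earlier results of these data known. Named are the 6 genes, the few genes of each list with the smallest p in a comparison, the 3 genes most like each of the 6, and some that did not pass over all arrays (Fcer1g, Syk, Pglyrp1, Il1b, Adam10), picked for their role. Genes behind a small count of marker or list genes (Gp6, Nr4a1, Klf4, Ccr2, Cd14, Fcgr1, Cx3cr1, Cd247, Cd3d, Cd3g, Cblb, Tnfaip3, Dok1) and Adgre1 were named after their values were seen. Alternatives were the t-test of the methods, fitting 2 groups alone, a variance trend, array weights, equal medians, quantile normalization once more, a filter on low values, averaging a gene's probe sets, testing every probe set, a replicate block, a 2-fold threshold and leaving out each array in turn.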

Additional observations from a re-analysis of the deposited data

How the results depend on the processing

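In the probe set used for the gene and in the mean of its probe sets, Trem1 stayed past the thresholds against Ctrl in PT+HS, in PT and in both together under every alternative run, while its second probe set alone did not pass between PT and Ctrl (0.47). The number of the 6 genes past the thresholds was 2 between PT and Ctrl and became 1 with a 2-fold threshold, 4 with array weights (which let PT replicate 1 make 86.9% of the PT mean) and 1 with probe sets averaged per gene. Between PT+HS and Ctrl it was 2 and became 1 at 2-fold and 3, with Trem3 added, under the methods' t-test, the alternatives named for Trem3 below and the replicate block. For both injured groups against Ctrl it was 1 and became 3 with array weights. For the 2-fold threshold, array weights and averaged probe sets the share of all genes that passed is not given here, so these counts stand without it. Leaving out each array in turn gave 0 to 1 between PT+HS and PT, 1 to 2 between PT and Ctrl, 1 to 3 between PT+HS and Ctrl and 1 to 2 for both injured groups against Ctrl. In the same order, 1.03% to 4.7%, 2.91% to 8.21%, 2.67% to 4.57% and 2.73% to 5.22% of all genes passed in these fits. Trem3 in PT+HS against Ctrl passed the thresholds under the methods' t-test and in limma with the 2 groups alone (p 0.00271), a variance trend (p 0.0326), repeated quantile normalization (p 0.0350), the filter on low values (p 0.0469) and array weights (p 0.00995). With the methods' t-test 542 of all genes passed between PT+HS and Ctrl, 293 between PT and Ctrl and 76 between PT+HS and PT, and 0 passed after Benjamini-Hochberg adjustment. With array weights the differences between PT+HS and PT turned to -0.22 for Trem1, -0.0047 for Trem2, -0.092 for Trem3 and -0.12 for Tyrobp, and Hcst was 0.0010 between PT+HS and Ctrl. With repeated quantile normalization Trem2 was -0.051 between PT+HS and PT and Hcst 0.041 between PT+HS and Ctrl, and with its probe sets averaged Trem2 was -0.035 between PT+HS and PT. The causes were not tested. Leaving out 1 array also turned the direction of small differences. Between PT+HS and PT the ranges were -0.032 to 0.41 for Trem1, -0.37 to 0.37 for Trem2 and -0.37 to 0.21 for Hcst. Between PT and Ctrl they were -0.21 to 0.53 for Trem2, -0.10 to 1.16 for Trem3 and -0.21 to 0.37 for Hcst. Between PT+HS and Ctrl they were -0.60 to 0.046 for Treml2 and -0.11 to 0.074 for Hcst, and for both injured groups against Ctrl -0.025 to 0.35 for Trem2 and -0.11 to 0.18 for Hcst. The fit to 2 groups alone was not run for both injured groups together.

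The labels do not say whether the replicate numbers pair animals. Deviations from the group means of same-numbered arrays correlated at -0.12 to 0.48, which does not settle it, and the numbers were used as names only. With the replicate number as a block, 2 of the 6 genes passed between PT+HS and PT (Trem3, 0.82, and Treml2, 0.65) and 3 for both injured groups against Ctrl, and the count over all genes was 264 between PT+HS and PT where it was 204 without the block.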

Other observations

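In the RefSeq gene order of chromosome 17, Trem1 is followed by Trem3, Treml4, Treml2, Trem2 and Treml1, with other genes between some of them, and Tyrobp and Hcst are direct neighbours on chromosome 7. Differences between PT+HS and PT along the first cluster were 0.13 for Trem1, 0.82 for Trem3, 0.72 for Treml4, 0.65 for Treml2, 0.02 for Trem2 and 0.36 for Treml1, of which Treml4 alone passed the thresholds. Between PT and Ctrl they were 1.18 for Trem1, 0.44 for Trem3, -1.17 for Treml4, -0.93 for Treml2, 0.14 for Trem2 and -0.49 for Treml1. The neighbours Tyrobp and Hcst had SDs in PT+HS of 0.31 and 0.03, in PT of 0.45 and 0.60 and in Ctrl of 0.09 and 0.19, and their correlation over the 9 arrays was 0.243 (exact permutation p = 0.538, adjusted 0.811, rho 0.10, exact permutation p = 0.810, adjusted 0.977).

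The Trem2 promoter window of the same table held GAGGAA on the minus strand at bases 211 to 216, TGANTCA at bases 242 to 248 and TTGCNNAA at bases 273 to 280. Trem2 had its largest r with the T cell markers, in the opposite direction (r -0.881, exact permutation p = 0.00331, adjusted 0.0628, rho -0.867, exact permutation p = 0.00451, adjusted 0.0433), with an r of -0.51 without the 2 arrays farthest from the median of the markers. It ran with the tissue macrophage markers by rank (rho 0.917, exact permutation p = 0.00131, adjusted 0.0210). The r was 0.750 (exact permutation p = 0.0203, adjusted 0.122), 0.882 without the 2 farthest arrays and 0.711 without PT replicate 2. These markers were low, with means of 3.68 to 4.38 per array, beside 4.29 for the middle gene by mean level. Adgre1 was the brightest, with group means of 5.63 in PT+HS, 5.34 in PT and 5.40 in Ctrl. Among the PT arrays, Trem2 and the marker mean were both highest in replicate 2 (5.46 and 4.17) and lowest in replicate 3 (3.98 and 3.68). Whether the relation reflects macrophages was not tested.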
